A study of Mus musculus with 8 samples.

Results

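The genes described here are 8 genes of young neurons, Tubb3, Stmn2, Stmn3, Elavl3, Elavl4, Dcx, Nefl and Nefm, followed over 8 arrays of sorted mouse embryo cells. Probes were taken by gene name, which gave 11 of the 55663 probes kept and 8 of 34837 names. The genes were chosen by their levels on these same arrays, which earlier analysis had shown, so those levels are given as a description and no p-value is attached to them. All 11 probes were well above background on at least 1 array.

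The Wolffian (nephric) duct is an epithelium of the intermediate mesoderm from which the ureteric bud grows to form the collecting system of the kidney. Cells came from ICR embryos carrying a Hoxb7-GFP transgene, in which a Hoxb7 promoter drives the fluorescent protein in the duct, or a Wt1-GFP reporter, which marks nephrogenic and coelomic mesoderm. The Hoxb7-GFP samples were E8.75 cells (1 array), the rostral and the caudal part of the duct at E9.5 (1 array each), the same parts at E10.5 (1 array each) and the ureteric bud at E11.5 (1 array). From E9.5 on, these cells were also selected as negative for Flk1 (Kdr), a receptor of endothelial cells, and the label of the E8.75 sample does not state that step. The Wt1-GFP samples were the rostral and the caudal part at E9.5 (1 array each), with no Flk1 selection stated. The labels do not say how many embryos were pooled, and no array repeats another's kind of sample, so there is no spread between like samples. A rostral and a caudal array of one group are different parts, and their difference mixes position with sampling error.

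Young neurons build a distinctive cytoskeleton as they leave the cell cycle and extend axons. Class III tubulin, stathmins, doublecortin and neurofilament subunits serve that cytoskeleton, and the Hu proteins bind and stabilise neuronal messenger RNAs. In cells outside the nervous system many such genes are held down by the repressor REST, and the nephric duct epithelium is not a known site of neuronal differentiation.

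A level below is the log2 of a probe's background-subtracted signal relative to the 75th percentile of its array, so 0 marks that percentile and 1 unit is a doubling of signal. On each array 60.6% to 69.2% of probes were well above background, and no spot was saturated. The rostral and caudal E9.5 duct had Hoxb7 levels of 2.49 and 2.38, against 1.56 and 1.71 in the Wt1-sorted cells, and Wt1 levels of -0.15 and -1.86, against 4.14 and 4.09. The brighter of 2 Kdr probes was at 4.21 at E8.75, and the other 5 duct arrays had levels of 1.52 to 2.003. All 12 probes of the duct list, among them Pax2, Lhx1, Gata3 and Ret, were higher on both E9.5 duct arrays than on both Wt1-GFP arrays, where 19.7% of 45585 tested probes were. The arrays lay on 1 slide in 2 parts of 4 arrays: E8.75, both E9.5 duct parts and rostral E10.5 in one, and caudal E10.5, E11.5 and both Wt1-GFP arrays in the other.

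Sequences of 7 probes help to read the values, and each line gives the last 30 bases of a probe, 5′ to 3′, with mm9 coordinates of the whole probe. The Tubb3 and Stmn2 probes are shown because each holds a polyadenylation hexamer (AATAAA, in capitals), which 10.1% of all probes hold on the printed strand. The pair of Elavl4 probes is shown because they behaved differently, and one of them holds a run of 5 TG repeats (TGTGTGTGTG, in capitals). The Dcx probes are shown because they are 3 different sequences of one gene that agreed on the highest and the lowest array, though not on the order between.
Tubb3 (chr8:125945850-125945909, plus strand): acttAATAAAgttactgctgtctgtcagat
Stmn2 (chr3:8561545-8561604, plus strand): gatgAATAAAgaattggagttctgtgaact
Elavl4, repeat probe (chr4:109877455-109877514, minus strand): TGTGTGTGTGtatgtgtacatataatataa
Elavl4, other probe (chr4:109878558-109878617, minus strand): ttaagatgaccattcgctcatttgaagaag
Dcx, first probe (chrX:140296337-140296396, minus strand): gcattgctgatgtgcagggggaagtaggat
Dcx, second probe (chrX:140295893-140295952, minus strand): tgagacatggagattctactgaaagagtgg
Dcx, last probe (chrX:140290854-140290913, minus strand): acagatactcaggggtttcagctaggctcc
The Dcx probes span 5543 bp and the Elavl4 probes 1163 bp. The exon or UTR that holds each probe was not assigned here.

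All 8 genes were at their highest in the rostral part of the E9.5 duct. This held for 11 of 11 probes, where 11.0% of all tested probes were highest on that array. The 11 here and below include the repeat probe of Elavl4, which led by only 0.14 units and is not read as a measure of that gene. For 10 of the 11 probes the rostral E9.5 duct stood at least 4-fold above every other array, which 0.522% of tested probes did (238 probes). The median level of the 11 probes was 3.69 there. It was 0.34 in the caudal E10.5 duct, -0.21 in the caudal E9.5 duct, -0.84 in the rostral E10.5 duct, -1.30 at E8.75, -1.45 in the E11.5 bud, -1.89 in rostral and -2.64 in caudal Wt1-GFP cells. Apart from the step below the rostral E9.5 duct, neighbours in that order differed by less than 1.815. That was the residual SD of this median after group and position were fitted (2 degrees of freedom). It comes from how the rostral to caudal differences varied between groups, the E9.5 duct pair included. It is not a spread between like samples, so it does not show which arrays differ. In such sorted pools, more neuronal cells and more neuronal RNA per cell cannot be told apart.

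**Figure D1:**
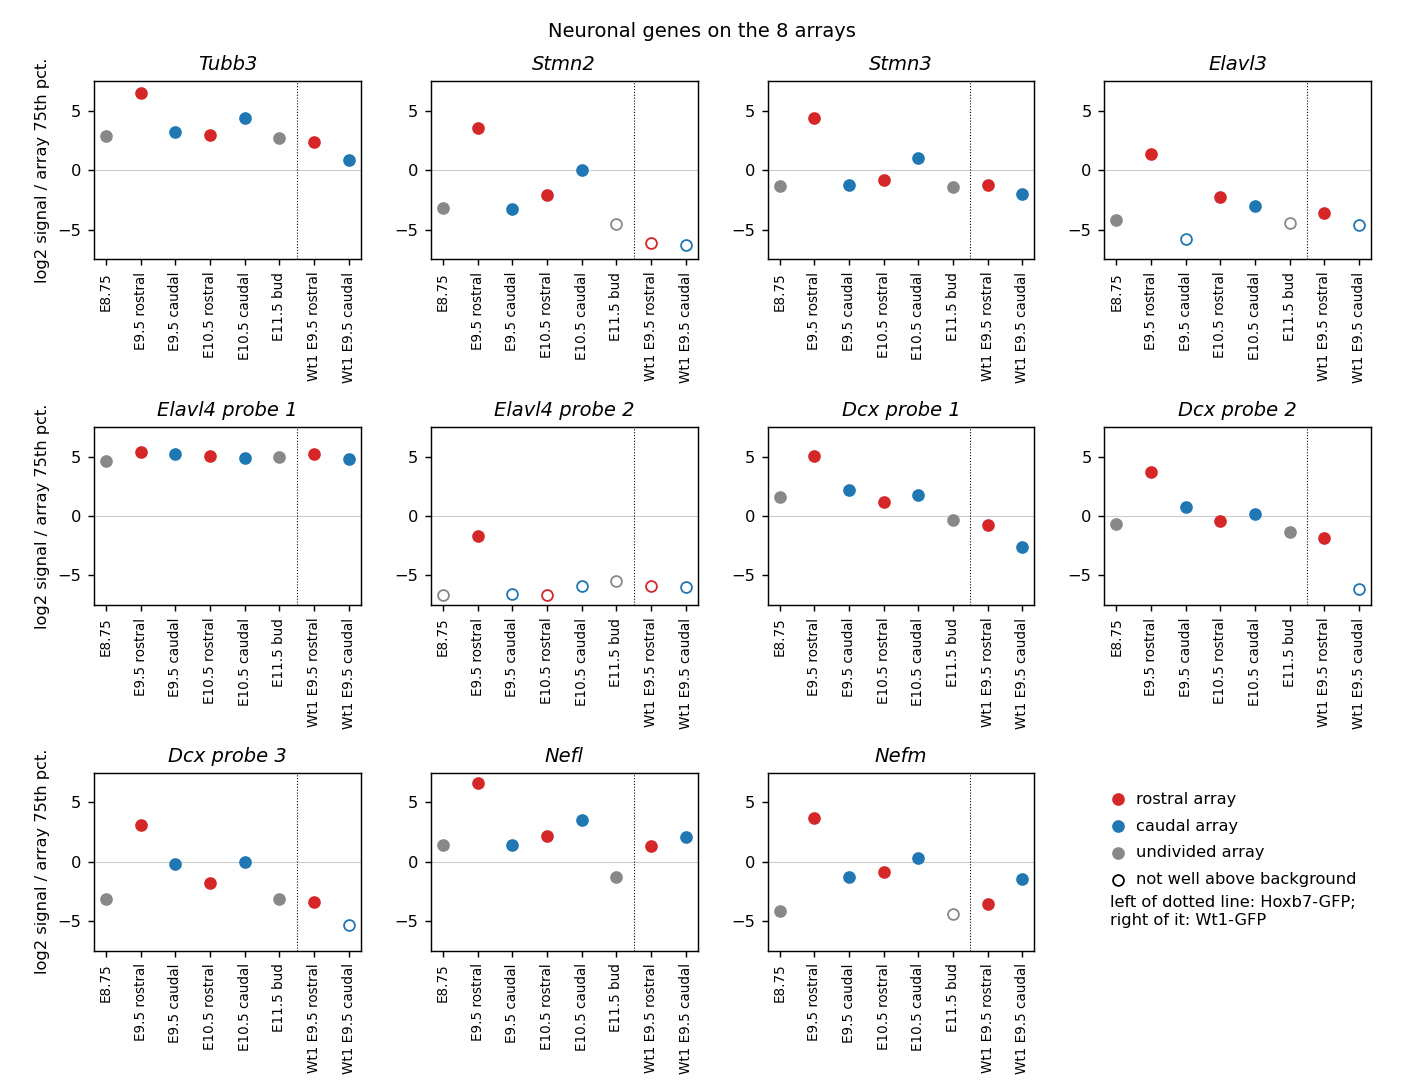
Level (log2 signal relative to the array's 75th percentile) of each of the 11 probes on the 8 arrays, 1 point per array, coloured by part and open where not well above background. Every panel has its highest point on the rostral E9.5 duct array, while the first Elavl4 panel, the repeat probe, is flat near 5.

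Tubb3 encodes class III beta-tubulin, a tubulin typical of neurons. It was at 2.89 at E8.75, 6.50 and 3.25 in the rostral and caudal E9.5 duct, 2.97 and 4.39 in the same parts at E10.5 and 2.71 in the E11.5 bud, against 2.33 and 0.84 in rostral and caudal Wt1-GFP cells. The probe was well above background on all 8 arrays, the rostral E9.5 duct was highest and caudal Wt1-GFP cells were lowest. The E9.5 duct parts differed 9.55-fold, rostral over caudal.

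The stathmins Stmn2 and Stmn3 bind tubulin and destabilise microtubules, and both act in growth cones of developing neurons. Stmn2 was at -3.18 at E8.75, 3.52 and -3.31 in the rostral and caudal E9.5 duct, -2.08 and -0.01 in those parts at E10.5 and -4.50 at E11.5, against -6.14 and -6.30 in Wt1-GFP cells. Its signal was not well above background on the E11.5 and both Wt1-GFP arrays, and its E9.5 duct parts differed 114-fold, rostral over caudal. Rostral E9.5 duct exceeded rostral Wt1-GFP cells at least 171-fold, a bound taken against the dimmest level well above background on the dimmer array. That bound holds only for the background subtraction used here. With another background correction (normexp) the mean Stmn2 difference between reporters was 3.00 units, against 6.33 as reported.
Stmn3 was at -1.29 at E8.75, 4.35 and -1.22 at E9.5, -0.84 and 1.06 at E10.5 (rostral and caudal duct each) and -1.45 at E11.5, against -1.23 and -1.97 in Wt1-GFP cells. Unlike Stmn2 it was well above background on all 8 arrays, and apart from the rostral E9.5 duct and the caudal E10.5 duct its arrays lay close together. Its E9.5 duct parts differed 47.5-fold, rostral over caudal.

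Elavl3 (HuC) and Elavl4 (HuD) are neuronal RNA-binding proteins. Elavl3 was at -4.20 at E8.75, 1.33 and -5.77 in the rostral and caudal E9.5 duct, -2.24 and -3.02 in those parts at E10.5 and -4.48 at E11.5, against -3.64 and -4.66 in Wt1-GFP cells. It was not well above background in the caudal E9.5 duct, the E11.5 bud and caudal Wt1-GFP cells, and its E9.5 duct parts differed at least 67.6-fold, rostral over caudal. It was the gene whose next highest array was the rostral, not the caudal, E10.5 duct.
The Elavl4 probes gave unlike profiles. The probe without the repeat was at -1.72 in the rostral E9.5 duct, its one array well above background, and between -6.68 and -5.50 on the other 7 arrays. Its rostral E9.5 duct level was at least 8.16-fold above the caudal part. The repeat probe was at 4.62 at E8.75, 5.35 and 5.17 in the rostral and caudal E9.5 duct, 5.09 and 4.91 in those parts at E10.5 and 4.92 at E11.5, against 5.21 and 4.83 in Wt1-GFP cells. These 8 levels lay within 0.72 units. The other 10 probes ranged over 3.25 units or more, with levels not well above background raised to the dimmest well-above level of their array. Of 55663 probes, 176 (0.316%) hold the same TGTGTGTGTG run on the probe strand, and 170 of these (96.6%) ranged over less than 1 unit, against 23.5% of all tested probes. Their median level over the arrays was 7.62, against -1.96 for all tested probes. The flat probe is not read here as a measure of Elavl4, and what it hybridised was not tested.

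**Figure D2:**
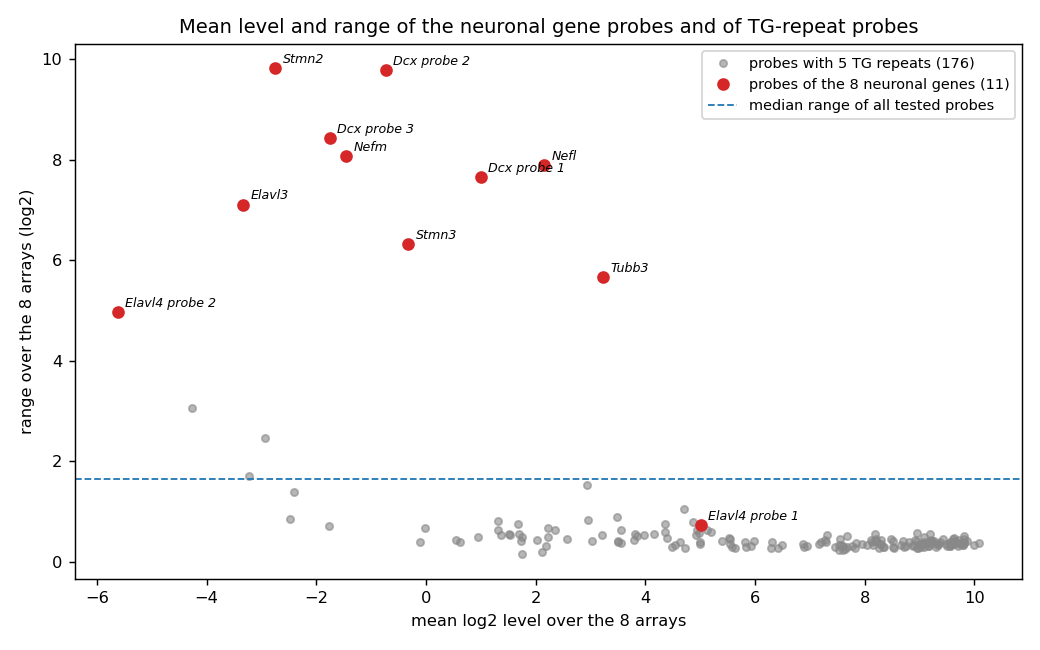
Mean level over the 8 arrays (horizontal, log2) and range over them (vertical, log2) of the 11 probes of the neuronal genes (red) and of the 176 probes with 5 TG repeats (grey). The repeat probe of Elavl4 (probe 1) has a range of 0.72 and lies among the grey points, and the other red points lie higher, several of them (Stmn2, Elavl3, Elavl4 probe 2, Nefm and 2 Dcx probes) drawn from levels not well above background.

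Dcx (doublecortin) binds microtubules in migrating and newly formed neurons. Its first probe was at 1.60 at E8.75, 5.01 and 2.15 in the rostral and caudal E9.5 duct, 1.15 and 1.77 in those parts at E10.5 and -0.31 at E11.5, against -0.73 and -2.64 in Wt1-GFP cells. The second probe was at -0.67, then 3.67 and 0.74, then -0.38 and 0.17, then -1.38 on the same duct arrays, against -1.89 and -6.11. The last probe was at -3.17, then 3.07 and -0.21, then -1.79 and -0.02, then -3.10, against -3.42 and -5.36. The 3 sequences thus agreed on the highest array and on caudal Wt1-GFP cells as the lowest, where the second and last probes were not well above background. The E9.5 duct parts differed 7.28-, 7.60- and 9.71-fold, rostral over caudal. Caudal E9.5 duct exceeded caudal Wt1-GFP cells, the lowest array, 27.6-fold on the first probe and at least 29.7- and 15.3-fold on the others. This was not particular to the caudal E9.5 duct, since every duct array lay above both Wt1-GFP arrays on all 3 probes. Rostral Wt1-GFP cells were nearer to it, at -0.73 against 2.15 on the first probe. The probes share one transcript family and RNA, so they are not repeats of the samples.

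Nefl and Nefm encode the light and medium neurofilament subunits, and their probes lie on chromosome 14 at 68705638 to 68705698 and 68738193 to 68738252 (mm9). Nefl was at 1.43 at E8.75, 6.59 and 1.41 in the rostral and caudal E9.5 duct, 2.17 and 3.55 in those parts at E10.5 and -1.31 at E11.5, against 1.32 and 2.08 in Wt1-GFP cells. It was well above background on all 8 arrays, lowest in the E11.5 bud, and its E9.5 duct parts differed 36.3-fold, rostral over caudal. Nefm, measured by 10 spots on each array, was at -4.14 at E8.75, 3.69 and -1.30 at E9.5, -0.88 and 0.34 at E10.5 (rostral and caudal duct each) and -4.38 at E11.5, against -3.52 and -1.48 in Wt1-GFP cells. It was not well above background at E11.5, and its E9.5 duct parts differed 31.9-fold, rostral over caudal. The neurofilament genes were the ones with lower levels in rostral than in caudal Wt1-GFP cells, with rostral minus caudal differences of -0.76 for Nefl and -2.05 for Nefm.

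Set side by side, the rostral and caudal pairs differed in size and direction. In the E9.5 duct all 11 probes were higher in the rostral part, with a median difference of 4.87 against 0.07 over all tested probes, and 10 of 11 were over 4-fold, where 4.34% of tested probes were. In the E10.5 duct 9 of 11 were higher in the caudal part, with a median rostral minus caudal difference of -1.22 against -0.06. The exceptions there were Elavl3 (0.78) and the repeat probe of Elavl4 (0.17), and 1 of 11, Stmn2 at -2.07, was past 4-fold, where 3.32% of tested probes were higher in the caudal part by that much. None of the 11 was 4-fold higher in the rostral part at E10.5, where 2.45% of tested probes were. In Wt1-GFP cells 9 of 11 were higher in the rostral part, with a median of 0.75 against 0.03, and 1 of 11, the second Dcx probe, was over 4-fold (background 4.04%). Nefm was past 4-fold the other way (1 of 11, background 1.91%). Each E9.5 pair lay within 1 slide part, whereas the E10.5 parts lay in different slide parts, so part of the duct and part of the slide cannot be told apart at E10.5.

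**Figure D3:**
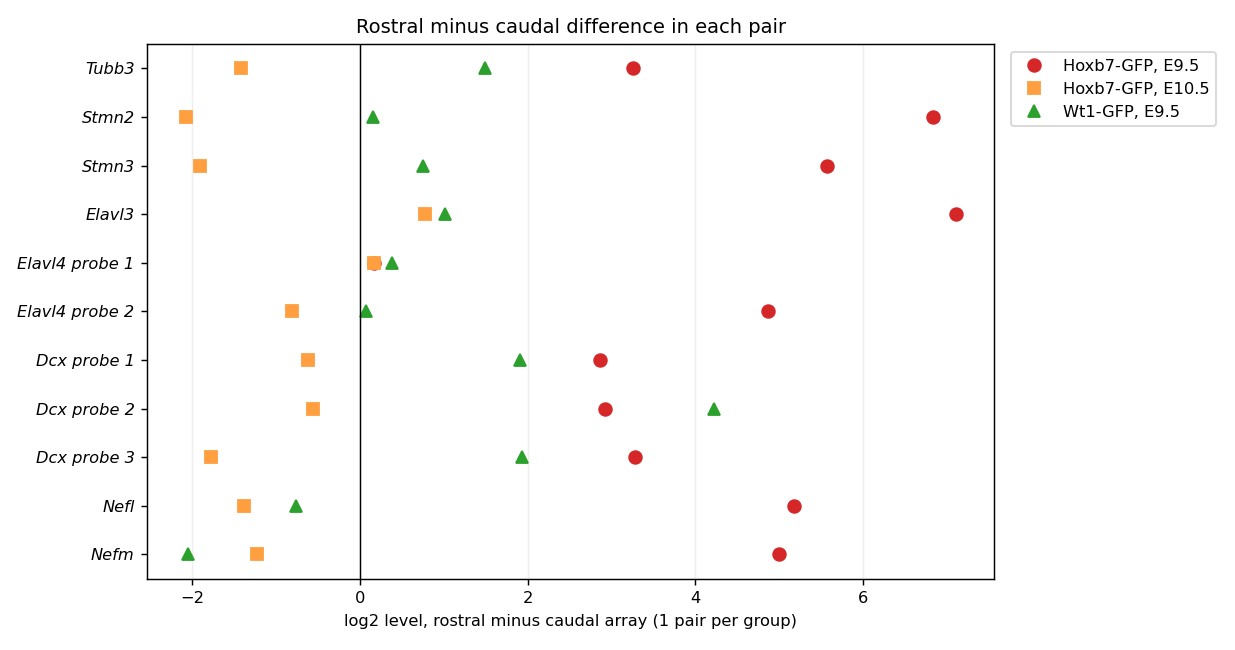
Rostral minus caudal difference (log2) of each of the 11 probes in the E9.5 duct (circles), the E10.5 duct (squares) and E9.5 Wt1-GFP cells (triangles), 1 pair per group. The circles lie between 0.17 and 7.10, and 9 of the 11 squares lie below 0.

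Between reporters at E9.5, duct cells had the higher mean on all 11 probes, with a median difference of 3.29 over Wt1-GFP cells against -0.05 for all tested probes. For 7 of the 11 probes, those of Tubb3, Stmn2, Stmn3, Dcx and Nefm, both duct arrays exceeded both Wt1-GFP arrays, where 19.7% of tested probes did so, and for none did both fall below, where 26.8% did. For Stmn3 the caudal duct and rostral Wt1-GFP cells were almost level, at -1.22 and -1.23. Leaving out the rostral E9.5 duct gave a median difference of 1.20 (8 probes higher, 3 lower), and leaving out the caudal part gave 5.95. Of the 3 lower ones, Nefl was well above background throughout, while Elavl3 and the Elavl4 probe without the repeat were not in the caudal duct, so their direction is not read. For each Dcx probe the caudal duct stood 3.83 units or more above the mean of Wt1-GFP cells. The E9.5 duct and Wt1-GFP arrays lay in different slide parts. With slide part added to the model (1 residual degree of freedom), 0 of 45585 tested probes passed adjusted p 0.05 in limma, as without it, so that fit says nothing about slide part.

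Across stages, the means of the E9.5 duct were above E8.75 on all 11 probes (median difference 2.57), and those of E10.5 were below E9.5 on all 11 (median -1.45). Both results rested on the rostral E9.5 duct. Without it, the caudal E9.5 duct differed from E8.75 by a median of 0.35 (8 higher, 3 lower), and E10.5 differed from it by 0.43 (7 higher, 4 lower), so the direction of the E10.5 step turned. Without the caudal E9.5 array that step was -3.96. Between E11.5 and E10.5, 10 of 11 probes were lower in the bud, with a median difference of -1.77 against -0.04 over all tested probes. Nefl had a difference of -4.17, while Nefm (-4.11), Stmn2 (-3.46) and Elavl3 (-1.85) were not well above background in the bud. The exception was the Elavl4 probe without the repeat, which was not well above background on any of those arrays.

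The wider neuronal programme was followed in 6 lists of other genes, with 101 genes and 133 tested probes, chosen with earlier results of these arrays known. Of the 133 probes, 49 (36.8%) were over 4-fold higher in the rostral than in the caudal E9.5 duct, against 4.34% of all tested probes, and 5 were lower by that much, against 2.07%. The rostral E9.5 duct was the highest array for 73 (54.9%), against 11.0%. Some of the 133 were well above background on that array alone, among them 1 probe each of Cntn2 and Syt4. The filter thus draws on an array that is compared, here and for all tested probes. The median rostral minus caudal difference of the 133 was 1.25 in the E9.5 duct, -0.43 in the E10.5 duct and 0.16 in Wt1-GFP cells. The signal summed over all 146 probes of these lists, tested or not, each relative to the 75th percentile, was 1656 in the rostral E9.5 duct. It was 1048 in the caudal part and ran from 942 to 1042 on the other duct arrays, against 1064 and 1050 in Wt1-GFP cells. These sums hold bright probes that were nearly level over the arrays. They include a Dpysl5 probe with the TG run, at a mean level of 8.51 over a range of 0.40 units. Probes of Snap25 (mean 7.37, range 0.56) and Nhlh1 (mean 6.88, range 0.68) are also in them. The sums are therefore not read as the neural signal of each array. For the 11 probes of the 8 genes the summed signal was 329 in the rostral E9.5 duct, 39.1 to 72.8 on the other duct arrays, and 46.2 and 35.3 in Wt1-GFP cells. Without the Elavl4 repeat probe it was 288 in the rostral E9.5 duct, 8.78 to 42.6 on the other duct arrays, and 9.12 and 6.88 in Wt1-GFP cells.

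The cytoskeletal and growth cone list had 21 of 35 tested probes (60%, background 4.34%) over 4-fold higher in the rostral E9.5 duct. Its median difference was 2.39. Ina, the neuronal intermediate filament internexin, was at 4.91 and -0.69 in the rostral and caudal parts on its brighter probe, and Cntn2, an axonal adhesion protein, was at 1.07 and -6.97 on the probe that differed most, the caudal value not being well above background. Ina was named by likeness, and Cntn2 was picked after its values were seen. The brightest probes of the list, those of Dpysl5, Tubb2b and Dpysl2, differed by 0.11, 0.75 and 0.46, and that Dpysl5 probe also holds the TG run. RNA-binding and synaptic genes had 13 of 23 probes past 4-fold (56.5%, background 4.34%) and a median of 2.47. Among their brightest probes, those of Snap25 and Celf4 differed by 0.32 and 0.29, while Scg3, Chga and Syp, which act in secretory granules and synaptic vesicles, differed by 5.81, 5.63 and 4.18 (picked after their values were seen, and the caudal Chga level was not well above background).

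Genes of particular neuron classes were mixed. The motor neuron and interneuron list had 4 of 16 probes higher (25%, background 4.34%) and 3 lower (background 2.07%) in the rostral E9.5 duct by 4-fold. Slc18a3, the vesicular acetylcholine transporter, was at 3.29 and -1.70 in the rostral and caudal parts, and the motor neuron factor Mnx1 at 2.06 and -1.05, whereas Slc32a1, the transporter that loads GABA and glycine into vesicles, was at -0.12 and 2.73. Pax8, which the duct itself expresses, was at 1.35 and 0.10. Among sensory and sympathetic genes 5 of 21 were higher (23.8%, background 4.34%) and 2 lower (background 2.07%). Isl1 and Isl2, factors of motor and sensory neurons, were at 2.15 and 3.67 in the rostral part and -0.91 and -1.35 in the caudal part. In rostral and caudal Wt1-GFP cells Isl1 was at -0.54 and 2.03, so its caudal Wt1-GFP level was close to that of the rostral duct. Isl2 was at -4.39 and -1.73 there. The sensory factors Tlx3 and Prrxl1 were not well above background on any of the 8 arrays. Among the brightest probes of this list, those of Th and Ntrk2 differed by 2.02 and 1.17. Mnx1, Isl1, Isl2, Tlx3 and Prrxl1 were picked after their values were seen.

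Progenitor and proneural genes had 4 of 25 probes past 4-fold (16%, background 4.34%) and a median difference of 0.65. Nhlh2, a factor of newborn neurons picked after its values were seen, was at 4.38 and -0.38 in the rostral and caudal E9.5 duct, and the brightest probes, of Nhlh1, Sox11 and Msi1, differed by 0.14, 0.30 and 0.32. Neural crest and Schwann cell genes had 2 of 13 past 4-fold (15.4%, background 4.34%) and a median of 0.08. Those were the brightest ones, Crabp1, a retinoic acid binding protein, at 6.69 and 3.96, and Ngfr, the low-affinity neurotrophin receptor, at 4.50 and 0.84, while Ets1 was level at 0.96 and 0.86. Other crest genes, picked after their values were seen, spread widely: in the rostral and caudal parts Tfap2a was at 2.13 and 2.49, Ednrb at 0.74 and 0.56 and Sox10 at -3.45 and -3.89, and Foxd3 was not well above background on any array. The part of any cell type in the levels of the 8 genes was not tested.

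**Figure D4:**
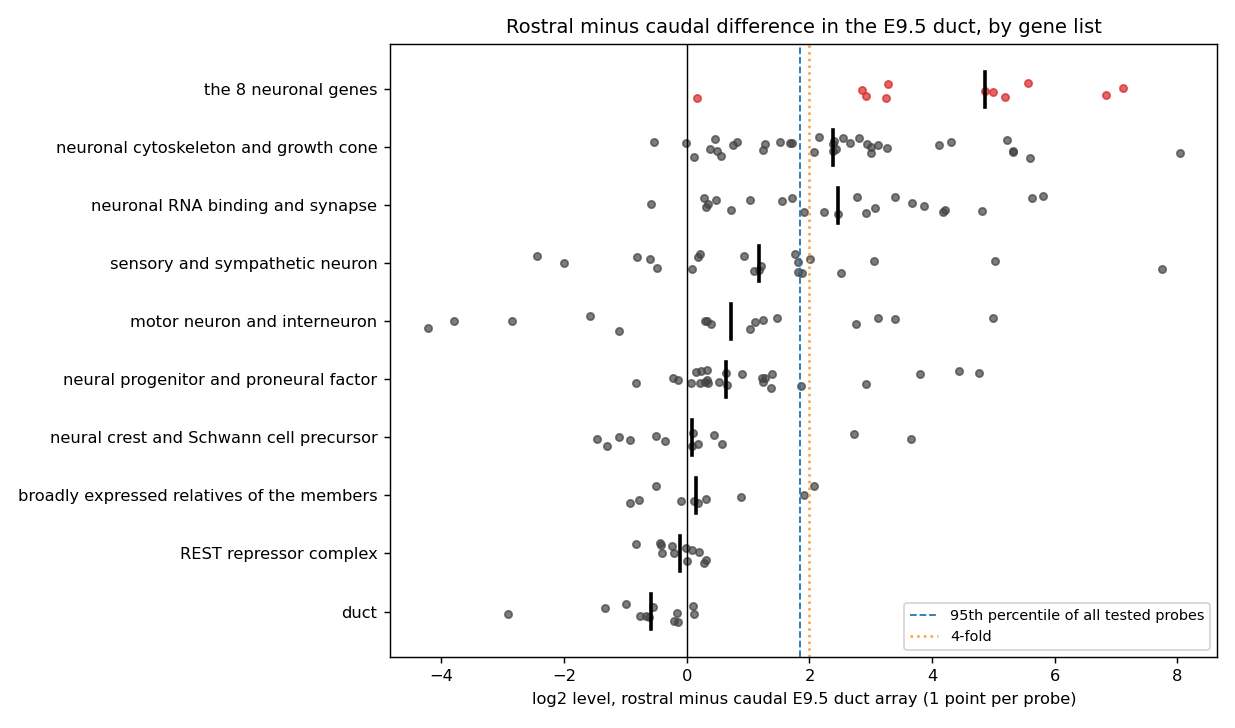
Rostral minus caudal difference in the E9.5 duct (log2), 1 point per tested probe, for the 8 neuronal genes and 9 gene lists, with each list's median as a black bar. The medians are 4.87 for the 8 genes, 2.39 and 2.47 for the cytoskeletal and the RNA-binding and synaptic lists, and -0.58 for duct genes; the dashed line is the 95th percentile of all tested probes (1.84).

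Relatives of the 8 genes that many cell types express had a median difference of 0.14 between the rostral and caudal E9.5 duct. Tubb5, Stmn1 and Tubb4b, the brightest of them, were at 8.08, 8.23 and 5.85 in the rostral and 7.91, 7.91 and 5.94 in the caudal E9.5 duct, and 1 of 10 probes (10%, background 4.34%), that of Tubb2a, was past 4-fold. The rostral E9.5 duct was the highest array for 3 of the 10 (30%, background 11.0%), 1 of them a dimmer Elavl1 probe at 1.72 and -0.19. The REST complex list had 0 of 12 probes past 4-fold either way (background 4.34% higher and 2.07% lower). Its median difference was -0.11, and its brightest genes Rcor2, Ehmt2 and Hdac1 differed by -0.41, -0.21 and 0.19. Between reporters, both E9.5 duct arrays were below both Wt1-GFP arrays for 7 of the 12 (background 26.8%) and above for 1 (background 19.7%). Duct markers stayed present in the rostral E9.5 duct: Pax2 was at 5.23 and 5.44, Wfdc2 at 4.60 and 5.16 and Lhx1 at 3.15 and 3.77 in the rostral and caudal parts. Duct genes had a median difference of -0.58. Of their 12 probes 1 was more than 4-fold lower (background 2.07%), that of Ret, the GDNF receptor needed for budding, at -0.61 and 2.31. Markers of intermediate mesoderm were also higher in the rostral part, with 2 of 6 probes past 4-fold (33.3%, background 4.34%) and a median of 1.66. Their brightest genes, Foxc2, Aldh1a2 and Osr1, were at -0.47, -0.32 and -0.98 in the rostral and -0.84, -1.15 and -2.59 in the caudal duct. Their summed signal was 4.06 and 1.64 in those parts, against 54.0 and 52.9 in rostral and caudal Wt1-GFP cells. The part of these differences in the neuronal levels was not tested.

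**Figure D5:**
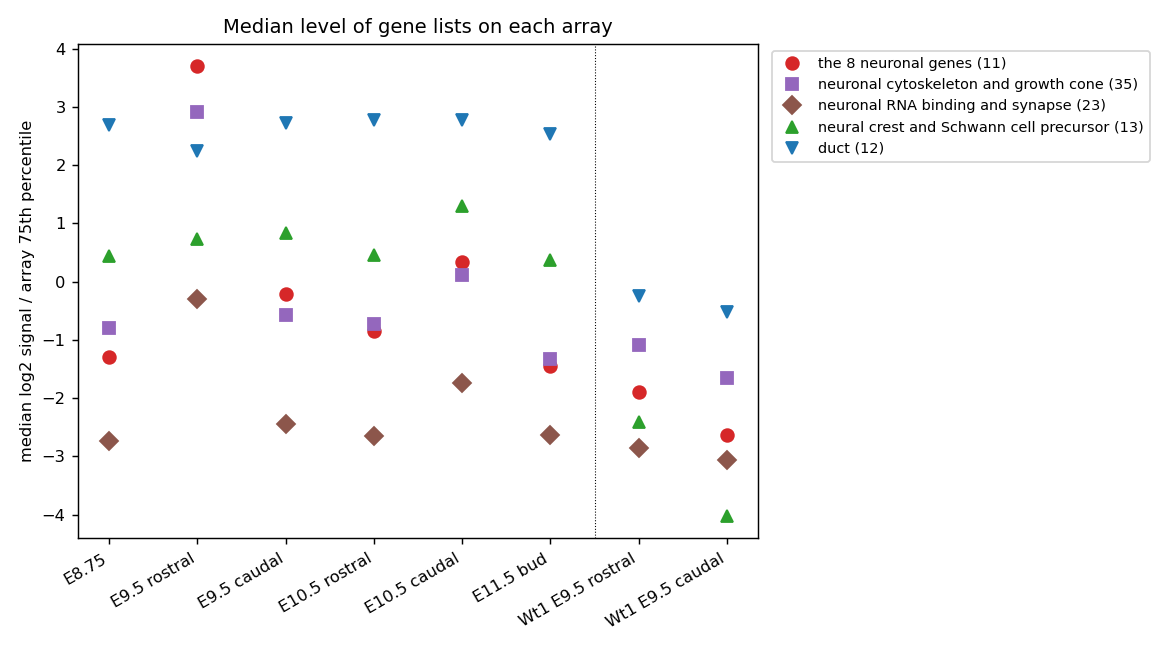
Median level (log2 signal relative to the array's 75th percentile) of the 8 neuronal genes and 4 gene lists on each of the 8 arrays, Hoxb7-GFP left and Wt1-GFP right of the dotted line, with the number of tested probes in brackets. The 8 genes lie at 3.69 on the rostral E9.5 duct array and at 0.34 or less on the others, while duct genes lie between 2.24 and 2.78 on all 6 duct arrays.

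No probe passed adjusted p 0.05 in limma over all 45585 tested probes (0.0% called) in any of 6 comparisons, and so none of the 133 neural probes did. Between E9.5 duct and Wt1-sorted cells the lowest adjusted p was 0.214, and 24 of the 133 had an unadjusted p under 0.05 (21 higher and 3 lower in the duct), a share of 18% against 11.8% of all tested probes. For rostral against caudal over the 3 pairs, 10 of 133 did (7.52%), against 6.39% of all, and the interaction of position with reporter, which sets both duct pairs against the Wt1-GFP pair, also gave 10, against 6.11%. The steps to E9.5, E10.5 and E11.5 from the stage before gave 17, 10 and 10 (12.8%, 7.52% and 7.52%), against 14.8%, 7.33% and 12.2% of all. With a prior variance that follows intensity, 383 probes (0.84%) passed as higher and 444 (0.974%) as lower in the E9.5 duct than in Wt1-GFP cells. Among them were 6 of the 133, from Dclk1, Uchl1, L1cam, Nrcam and Tfap2a (2 probes), all higher in the duct. Tfap2a, a factor of crest and of epithelia, was at 2.13 and 2.49 in the rostral and caudal duct, against -6.18 and -4.02 in Wt1-GFP cells on its brighter probe. With 2 residual degrees of freedom, drawn from how the rostral to caudal difference varied between groups, these p-values do not measure variation between embryos.

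Among 36629 probes well above background on at least 4 arrays, the profiles most like the mean of the 8 genes over the 8 arrays were those of Ina (Pearson r = 0.973), Kif5a (0.969), Cend1 (0.963), Map2 (0.959), St8sia3 (0.956), Rab3c (0.955), Rtbdn (0.953) and Onecut2 (0.952). Kif5a, a neuronal kinesin, was at 1.98 and -3.40 in the rostral and caudal E9.5 duct, and Map2, a dendritic microtubule protein, at 3.37 and -0.74. Rtbdn followed the same shape over a range of 1.25 units. The profiles most like Tubb3 alone were those of Col20a1 (0.979), Rtbdn (0.970), Sytl3 (0.954), Ina (0.949) and Armh4 (0.949). These are descriptions over 8 arrays that share a slide, and the one high array weighs in each coefficient.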

How the data were processed

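The 8 samples were sorted mouse cells, 1 array each. A NuGEN Pico system amplified 10 ng of RNA, and the cDNA carried Cy3, per the labels. The deposited intensity of a spot was written by Agilent Feature Extraction 10.7.3.1 with background subtracted and each array detrended, per the file headers. The deposited matrix holds log2 values whose scale the sources used here do not give. They followed the levels used here, centred on each probe's median, at r = 0.99998 (largest probe median 0.005, column medians -0.07 to 0.08), and their direction is that of the scanner values. The matrix served as an alternative.

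Of 62976 spots per array, 59305 were not controls, from 55681 probes. Spots called outliers (100 to 193 per array) were left out, spots of one probe were averaged, and 18 probes with no spot left on some array were dropped. The 75th percentile signal was 232 to 306, and the median local background was 25 to 31. A probe was well above background on an array where at least 50% of its spots were flagged so, and probes passing on at least 1 array were tested (45585). A fold is 2 to the power of a difference, and "at least" marks one whose dimmer side is not well above background. Such bounds hold only for the background subtraction used here. The number of arrays limits the precision.

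The fit used limma 3.58.1 under R 4.3.3 (and data.table, version 1.17.8), with 5 groups and a position term (0.5 rostral, -0.5 caudal, 0 undivided), leaving 2 residual degrees of freedom, or 1 with a reporter-specific position term. Benjamini-Hochberg adjustment ran over all tested probes, and the fit was tested on simulated data. The lone E8.75 and E11.5 arrays were assumed to vary as the other groups did. Descriptions used Python 3.11.15, pandas 2.3.3, numpy 2.4.6 and matplotlib 3.10.9.

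The members and lists were chosen with earlier results of these data known. Named genes are all member probes, the 3 brightest genes of each list (none passed), the 8 closest profiles to the members and 5 to Tubb3 (at least 4 arrays well above background), and Hoxb7, Wt1 and Kdr. Some genes that this rule names are not reported here. Others are marked as picked after their values were seen. The 4-fold mark (2 units) was set with values known. Alternatives were normexp (offset 50), quantile and median scaling, the matrix, other filters, a floor, 1 probe per gene, an intensity trend, no position term, slide part as a block, and leaving out each array. Gene symbols are those of the array files, updated through RefSeq where possible. No genome sequence was used.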

Additional observations from a re-analysis of the deposited data

Results flagged for a closer look

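For 6 of the 8 genes the rostral minus caudal difference of the brightest probe had opposite signs in the E9.5 and the E10.5 duct. The gap between both differences was 8.91 units for Stmn2, 7.47 for Stmn3, 6.56 for Nefl, 6.22 for Nefm, 4.67 for Tubb3 and 3.48 for Dcx, each with the rostral part higher at E9.5 and lower at E10.5. Nefl and Nefm also had opposite signs in the E9.5 duct and in Wt1-GFP cells, with gaps of 5.94 and 7.04. The Elavl4 probe counted here is the repeat probe. Its other probe also had opposite signs (4.87 and -0.81), but was not well above background at E10.5. None of these gaps was tested, since the genes were chosen on these arrays and each group had 1 pair. Among all tested probes 54.6% were higher in the rostral part of the duct at E9.5 and 45.6% at E10.5. The share of all probes with opposite signs was not counted, and the signs at E9.5 are not independent of how the genes were chosen. In limma's interaction of position with reporter, which pools the duct pairs of both stages, 0 of 45585 probes passed adjusted p 0.05, and 2785 had an unadjusted p under 0.05. The E10.5 parts lay in different slide parts.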

How the results depend on the processing

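The count of neural probes passing adjusted p 0.05 between reporters at E9.5 was 0 as reported, 3 with normexp background correction and 6 with the intensity trend. All other such counts were 0 in the comparisons and settings run. The members' median difference between reporters at E9.5 ran from 1.20 (without the rostral E9.5 duct array) to 5.95 (without the caudal one) when single arrays were left out. That of E10.5 minus E9.5 ran from -3.96 to 0.43 over the same arrays, turning its direction without the rostral one. Of 200 values of single genes under other settings, 8 moved by more than their residual spread and 3 turned. That spread was 0.084 units for the Elavl4 repeat probe and 1.27 to 3.28 for the other genes. It includes the E9.5 duct pair, so the tally misses large shifts. Stmn2 between reporters, at 4.13 with a floor, was not counted as moved. Of the 8 that moved, Stmn2 between reporters was 3.00 with normexp, against 6.33 as reported. Elavl3 in the E9.5 duct pair was 3.39 with normexp, against 7.10 as reported. The others were small differences of the Elavl4 repeat probe. Those 3 were the Wt1-GFP rostral minus caudal difference of Stmn2, at -0.034 with quantile normalization and -0.040 with median scaling, and the E9.5 duct difference of the Elavl4 repeat probe, at -0.015 with median scaling. Median scaling moved the median over all tested probes to -0.15 between reporters, -0.12 for rostral minus caudal in the E9.5 duct and -0.17 in Wt1-GFP cells, and the members' medians were then 3.19, 4.68 and 0.55. The median of the E9.5 duct pair, 4.87 as reported, was lower with normexp (3.16), with a floor (3.28) and over probes well above background on all arrays (3.26). The cause of these shifts was not tested. The interaction was not run with the slide block or with an array of a pair left out, which leave no residual degrees of freedom. Rostral and caudal arrays of a group were paired through the position term. The labels give no replicate numbers, so no fit with such a number as a block was run. Dim probes limit Stmn2, Elavl3 and Elavl4 to bounds on several arrays.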

Other observations

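Other genes also stood alone on the rostral E9.5 duct array, and those named in this paragraph were picked after their values were seen. Srrm4, a splicing factor of neurons, was at 2.35 there and at -2.35 or less on the other 7 arrays. Arhgap36 was at 3.38, against -0.79 in the caudal E9.5 duct, and the transcription factor Onecut1 was at -0.53, against -6.06, which was not well above background. The host gene of the neuronal microRNA miR-124, listed as Mir124-2hg, was at 2.34 and -2.32 in the rostral and caudal parts. The number of probes at least 4-fold above every other array was 238 for the rostral E9.5 duct, and ran from 95 in the caudal E9.5 duct to 374 in the E11.5 bud among the other arrays. The rostral E9.5 duct thus did not hold the most such probes. Of its 238, 10 belong to the 8 neuronal genes, which were chosen by their levels on these arrays.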
